A study of Mus musculus with 15 samples.

Results

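The TRIM family was followed across 5 groups of mouse embryonic fibroblasts (MEFs) on Affymetrix Mouse Exon 1.0 ST arrays, with 3 arrays in each group. Members were the rows annotated to a single gene whose symbol is Trim with a number, with or without a trailing letter. There were 44 of them among 14996 single-gene rows and 16755 rows in all. Of these, 8 belong to a list of TRIM genes described as interferon-induced (Trim30a, Trim25, Trim21, Trim34a, Trim56, Trim14, Trim26 and Trim30b), and the other 36 do not. Another 7 rows carry a numbered Trim gene together with other genes and were not counted as members.

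The Mta1-KO group holds MEFs of Mta1-/- embryos, and the Mta1-KO/Mta1 group holds the same knockout MEFs into which Mta1 was transfected. The P53-KO group holds MEFs of P53-/- embryos, and P53-KO/Mta1 holds P53-/- MEFs over-expressing Mta1. WT MEFs were the control of the Mta1 knockout. The labels give embryonic day 9.0 for WT, Mta1-KO and Mta1-KO/Mta1 and day 12.5 for the 2 P53 groups, so P53 genotype and embryo age cannot be told apart in a comparison with WT. The paper lists the P53-/- MEFs as provided by another investigator, separately from the WT and Mta1-/- MEFs. The origin of the cells cannot be told apart from genotype either. All groups carry the strain label C57BL/6J, and the labels name no treatment besides Mta1 itself. The study's methods describe the 3 arrays of each group as biological replicates, and the titles of WT, Mta1-KO and P53-KO say the same. The sources used here do not say whether these were separate embryos, clones or cultures. The p-values therefore reflect how far arrays of a group lie apart.

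Most TRIM proteins carry a RING finger, B-boxes and a coiled coil, and most act as E3 ubiquitin ligases, enzymes that place ubiquitin on chosen substrates. What follows the coiled coil sorts them into classes: a PRYSPRY domain in most of the antiviral members, a PHD finger and bromodomain in the TIF1 chromatin class, and NHL repeats in a class that includes RNA-binding and neuronal members. Type I interferon acts through the receptor subunits Ifnar1 and Ifnar2 and, by way of interferon-stimulated response elements in promoters, raises a set of antiviral genes, some TRIM genes among them.

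The deposited values are log2 values centred on each row's median over the 15 arrays, so 0 is the middle array of that gene and no level can be compared between genes. Array medians lay between -0.0165 and 0.0231, and correlations between arrays of a group lay between 0.868 and 0.961. The Mta1 row read -1.10 to -1.06 in Mta1-KO, -1.35 to -1.13 in arrays labelled Mta1-KO/Mta1, and -0.06 to 0.08 in WT arrays. The same row read 0.36 to 0.52 in P53-KO and 0.65 to 0.76 in P53-KO/Mta1. In Mta1-KO against WT its change was -1.09 (adjusted p = 6.17e-09, limma) and the Mta1-KO/Mta1 arrays were not above Mta1-KO (-0.17, adjusted p = 0.0669). Whether its probes lie in the deleted or the introduced part is not given, so it does not check the transfection, and loss of P53 was not looked at. The paper itself compared Mta1 protein between the 5 groups on a Western blot, which was not examined here. The name Mta1-KO/Mta1 stands for the arrays so labelled. Because rows are centred, the absence of a cell type's markers cannot be read.

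Several interferon-induced members sit together in the genome. In the RefSeq annotation of GRCm38.p6, 10 numbered Trim genes follow each other on chromosome 7 (Trim6, Trim34a, Trim5, Trim12a, Trim34b, Trim12c, Trim30b, Trim30c, Trim30a and Trim30d), with 8 other entries between them, and 3 of the 10 were measured on rows of their own. Promoter windows of 250 bases before to 50 bases after the start were taken from RefSeq. Those of Trim30a, Trim21 and Trim34a are shown because they are interferon-induced members whose rows moved and that hold the letters of an interferon-stimulated response element (GAAA, any 2 bases and GAAA again, on either strand). That of Trim30b is shown as a neighbour of Trim30a whose row did not move. Capitals mark the matches, and each window is written 5′ to 3′ on the strand of its gene.
Trim30a: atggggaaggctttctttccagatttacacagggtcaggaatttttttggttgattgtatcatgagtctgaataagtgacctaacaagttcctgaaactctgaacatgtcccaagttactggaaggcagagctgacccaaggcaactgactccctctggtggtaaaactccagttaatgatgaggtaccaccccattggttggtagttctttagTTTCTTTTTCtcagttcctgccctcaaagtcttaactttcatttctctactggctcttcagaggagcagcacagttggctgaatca
Trim21: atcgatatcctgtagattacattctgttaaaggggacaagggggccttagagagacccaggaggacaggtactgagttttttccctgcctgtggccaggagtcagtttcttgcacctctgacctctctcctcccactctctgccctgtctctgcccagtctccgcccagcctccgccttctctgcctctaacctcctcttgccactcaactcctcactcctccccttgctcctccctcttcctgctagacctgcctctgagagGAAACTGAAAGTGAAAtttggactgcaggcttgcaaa
Trim34a: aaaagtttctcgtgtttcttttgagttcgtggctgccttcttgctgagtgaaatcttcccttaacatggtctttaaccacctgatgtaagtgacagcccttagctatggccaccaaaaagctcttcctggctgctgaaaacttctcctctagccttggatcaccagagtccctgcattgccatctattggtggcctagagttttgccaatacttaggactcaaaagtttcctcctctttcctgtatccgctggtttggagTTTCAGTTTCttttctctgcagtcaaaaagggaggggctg
Trim30b: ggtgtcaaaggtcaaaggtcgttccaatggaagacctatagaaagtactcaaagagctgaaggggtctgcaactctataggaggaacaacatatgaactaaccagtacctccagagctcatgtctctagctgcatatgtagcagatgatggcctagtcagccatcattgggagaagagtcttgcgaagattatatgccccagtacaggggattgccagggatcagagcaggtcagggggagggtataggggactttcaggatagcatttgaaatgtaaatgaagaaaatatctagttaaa
The windows are chr7:104465144-104465443 on the minus strand for Trim30a, chr7:102565433-102565732 on the minus strand for Trim21, chr7:104244207-104244506 on the plus strand for Trim34a and chr7:104358597-104358896 on the minus strand for Trim30b. Trim21 holds 2 overlapping matches, and Trim30b holds none. Counted from the 5′ end, the match covers bases 215 to 224 in Trim30a and 261 to 270 in Trim34a. RefSeq gives Trim30a 2 starts, and the window of the other start, not shown, also holds a match. The letters occurred in 4 of the 7 interferon-induced members with a promoter entry (Trim26 besides the 3 shown), in 1 of the 27 other members with an entry (Trim2), and in 3.99% of 27025 genes with an entry (3.44% of 32851 windows). Trim25 and Trim56, whose rows also moved, had no match, while Trim26, which had matches, stayed below the minimum fold in Mta1-KO against WT. The letters TTCNNNGAA of a gamma-activated site occurred in 0 of these 7, in 4 of the 27 others (Trim15, Trim31, Trim45 and Trim46) and in 9.55% of those genes (8.3% of windows). A match describes the letters in this window and is not a measured binding site.

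In Mta1-KO MEFs compared with WT, 6 of the 8 interferon-induced TRIM genes were up-regulated by a factor of 2 or more, with Trim30a at 76.5-fold and Trim14 at 2.09-fold as the extremes. No other member was called. A row was called where its limma p, adjusted by Benjamini-Hochberg over all rows, was under 0.05 and the group means differed by a factor of 2 or more. The called members were 6 of 44, all higher, beside 6.64% of all rows (4.23% higher and 2.41% lower). All 6 were among the 8 interferon-induced members. Without a minimum fold 24 of 44 members passed, beside 40.2% of all rows. By that rule 7 of the 8 interferon-induced members were higher and none lower, beside 17.6% of all rows higher and 22.6% lower. Their median log2 change was 1.59, against 0.02 over the 36 other members and 0.03 over all rows.

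Trim30a, which in mouse macrophages restrains signalling from Toll-like receptors, had the widest range of any member over the 15 arrays, 6.42 on the log2 scale. It read 4.10, 4.16 and 4.09 in Mta1-KO, against -2.26, -1.99 and -2.17 in WT. The groups were far apart, with a log2 change of 6.26 (standard error 0.0875, adjusted p = 1.82e-15). Trim25, the ligase that activates the RNA sensor RIG-I, read 1.16, 1.33 and 1.24 in Mta1-KO, against -1.93, -1.91 and -1.51 in WT, a change of 3.03 (8.17-fold, adjusted p = 3.19e-11). Trim21, a cytosolic receptor for antibody-coated virus, read 2.40, 2.28 and 2.31 in Mta1-KO, against -0.33, -0.19 and -0.36 in WT, a change of 2.63 (6.17-fold, adjusted p = 3.885e-13). In each of the 3 genes every Mta1-KO array lay above every WT array.

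Trim34a, a PRYSPRY member of the chromosome 7 run, read 1.42, 1.48 and 1.25 in Mta1-KO, against -0.65, -0.51 and -0.37 in WT. Its log2 change was 1.89 (standard error 0.0851, adjusted p = 2.36e-10). Trim56, a ligase that promotes STING signalling, read 1.14, 1.15 and 1.04 in Mta1-KO, against -0.13, -0.19 and -0.23 in WT, a change of 1.29 (adjusted p = 3.23e-07). Neither pair of groups overlapped. Trim14, a member without a RING finger that acts with the adaptor MAVS, read 0.95, 0.64 and 0.60 in Mta1-KO, against -0.45, -0.33 and -0.22 in WT. Its change of 1.07 (adjusted p = 6.19e-07) was just past a factor of 2, and without Mta1-KO replicate 1, its highest array, it was 0.96 and no longer called.

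The remaining interferon-induced members differed less. Trim26, a ligase for nuclear IRF3, read 0.45, 0.26 and 0.35 in Mta1-KO, against 0, -0.07 and -0.0023 in WT. It passed the test at 0.37 (adjusted p = 9.15e-05), below the minimum fold. Trim30b read 0.13, 0 and 0.0003 in Mta1-KO, against -0.07, -0.08 and -0.02 in WT. The groups did not overlap, but the difference of 0.10 (95% confidence interval -0.0071 to 0.20, adjusted p = 0.136) did not pass. Every one of the 8 had its Mta1-KO arrays above its WT arrays, beside 21.4% of all rows.

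**Figure D1:**
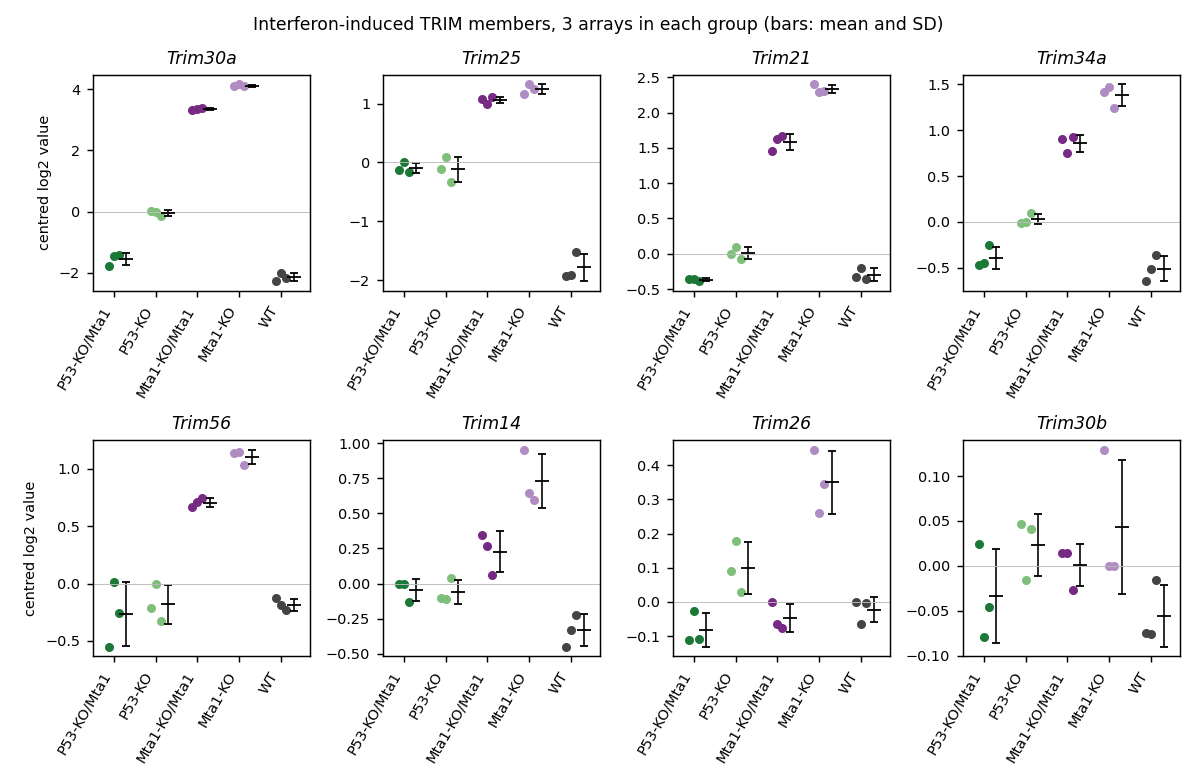
Centred log2 values (y axis) of the 8 interferon-induced TRIM members in the 5 groups (x axis), 1 point for each array, with the mean and SD of the 3 arrays beside them. In 6 panels the Mta1-KO and Mta1-KO/Mta1 arrays lie above all other arrays; Trim26 is high in Mta1-KO alone and Trim30b spans 0.208 over all arrays.

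Rows that a numbered Trim gene shares with other genes cannot be given to any of them, and near-identical copies (Trim30a to Trim30d, Trim34a and Trim34b, Trim12a, Trim12c and Trim5) may also share probes with the rows of single genes. In Mta1-KO against WT a row of Trim12c, Trim12a and Trim5 was higher by 3.12 (adjusted p = 4.43e-09), and a second row of the same 3 genes by 0.33, below the minimum fold. A row of Trim30d and Ccnyl1 was higher by 4.19 (adjusted p = 1.37e-12). Between Mta1-KO/Mta1 and Mta1-KO the changes of the first and the last of these rows were -1.01 and -1.91, and both were called lower.

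None of the 36 other members was called between Mta1-KO and WT by limma or by the methods' t-test, though 18 had an unadjusted p under 0.05. At an adjusted p under 0.05 alone, 7 of 36 (19.4%) were higher and 10 (27.8%) lower, beside 17.6% and 22.6% of all rows. The largest rises were in Trim32, a ligase of striated muscle whose human gene is mutated in a limb-girdle muscular dystrophy (0.59, adjusted p = 1.29e-04), Trim8, which modulates cytokine signalling (0.59, adjusted p = 2.39e-05), and Trim65, a ligase for the RNA sensor MDA5 (0.52, adjusted p = 3.56e-04). The largest falls were in Trim37, a ligase of peroxisomes and centrosomes (-0.71, adjusted p = 4.09e-05), Trim27, which regulates endosomal sorting (-0.70, adjusted p = 9.21e-07), and Trim2, a neuronal ligase for neurofilament light chain (-0.63, adjusted p = 7.90e-06).

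The arrays behind the falls were separated. Trim37 read -0.38, -0.25 and -0.46 in Mta1-KO, against 0.32, 0.37 and 0.34 in WT. Trim27 read -0.49, -0.65 and -0.54 in Mta1-KO, against 0.23, 0.14 and 0.05 in WT. Neither gene had an Mta1-KO array within the WT range. Among the rises, Trim32 read 0.62, 0.61 and 0.51 in Mta1-KO, against -0.05, -0.02 and 0.05 in WT, again without overlap. Over all 44 members, 16 had their Mta1-KO arrays above and 10 below their WT arrays, beside 21.4% and 25.9% of all rows.

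In the TIF1 class, 3 of the 4 measured members were lower in Mta1-KO than in WT at an adjusted p under 0.05, beside 22.6% of all rows, and 0 were called. Trim24, a cofactor of nuclear receptors and a ligase for P53, read -0.44, -0.21 and -0.43 in Mta1-KO, against 0.25, 0.17 and 0 in WT (change -0.50, adjusted p = 7.63e-05). Trim33, a ligase for Smad4, read -0.36, -0.14 and -0.33 in Mta1-KO, against 0.27, 0.18 and 0.09 in WT (change -0.46, adjusted p = 1.14e-04). Trim28, the corepressor of KRAB zinc finger proteins, read -0.32, -0.37 and -0.31 in Mta1-KO, against 0, -0.07 and 0.03 in WT (change -0.32, adjusted p = 8.03e-04). The arrays of these 3 genes did not overlap, beside 25.9% of all rows that were lower without overlap, and Trim66, at -0.05, did not pass. Elsewhere the counts that passed as higher and lower stood beside 17.6% of all rows higher and 22.6% lower. They were 4 and 1 of 14 PRYSPRY members outside the interferon list and 0 and 1 of 4 members of the microtubule-binding COS-box class. They were 2 and 1 of 3 NHL members, 0 and 0 of 1 muscle member, and 1 and 4 of the 10 members outside the classes named here.

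**Figure D2:**
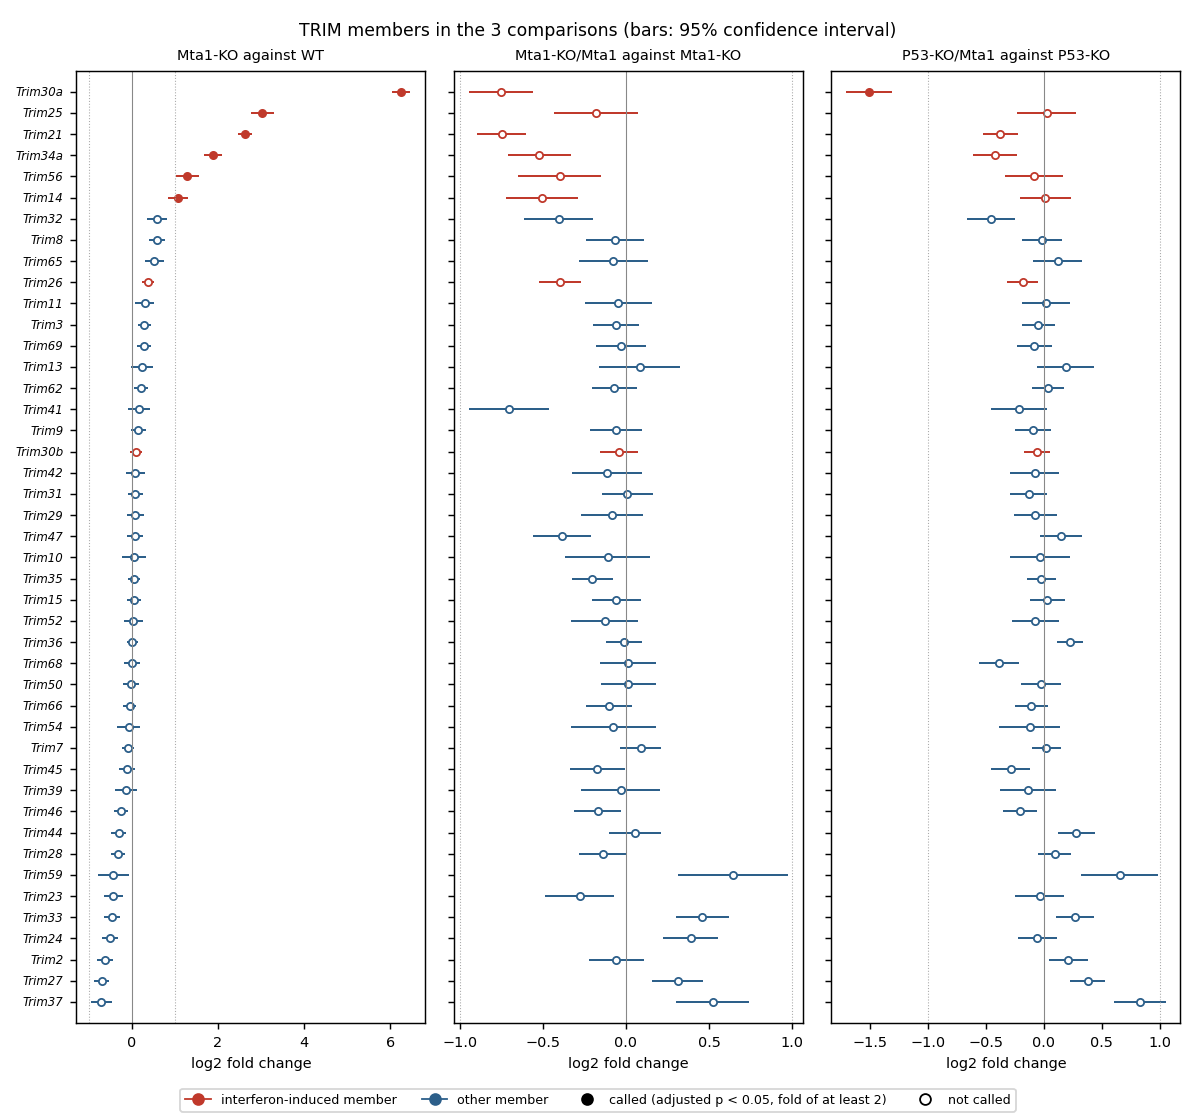
Log2 fold change (x axis) of the 44 TRIM members (rows, ordered by the change in Mta1-KO against WT) in 3 comparisons, with 95% confidence intervals; filled points were called, open points were not, and dotted lines mark a fold of 2. The 6 filled points of the left panel are interferon-induced members, and the only other filled point is Trim30a in P53-KO/Mta1 against P53-KO.

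Arrays labelled Mta1-KO/Mta1 had lower values of most interferon-induced members than Mta1-KO, by less than a factor of 2 each. No member was called by limma or by the methods' t-test, beside 1.11% of all rows (0.322% higher and 0.788% lower), and 19 of 44 had an unadjusted p under 0.05. At an adjusted p under 0.05 alone, 16 members passed, beside 28.0% of all rows. Of the 8 interferon-induced members 6 were lower and none higher, beside 15.7% of all rows lower and 12.4% higher. Of the 36 others, 5 were higher and 5 lower, and without Mta1-KO replicate 3 the count of lower ones was 3. By the methods' t-test 3 were higher. The median of the interferon-induced members was -0.45, against -0.06 over the others and -0.03 over all rows. After quantile normalization of the row-centred values between arrays it was -0.18, and Trim30a and Trim56 no longer passed. The share of higher rows among all called rows was then 50.2% where it had been 29%. This comparison shares the Mta1-KO arrays with the comparison against WT.

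Trim30a read 3.33, 3.37 and 3.40 in Mta1-KO/Mta1, against 4.10, 4.16 and 4.09 in Mta1-KO, a change of -0.75 (adjusted p = 2.29e-05). The size of this change depended on the scaling, since after quantile normalization it was -0.11 (adjusted p = 0.405, limma). That step acted on row-centred values and gives every array the same set of them. The values of a row high in both groups can be drawn together by the step itself. Which size is nearer the true one was not tested. Trim21 read 1.46, 1.63 and 1.66 in Mta1-KO/Mta1, against 2.40, 2.28 and 2.31 in Mta1-KO, a change of -0.75 (adjusted p = 1.885e-06), or -0.21 after quantile normalization (adjusted p = 0.0363). In the deposited values neither gene overlapped between the groups. Trim34a, Trim14, Trim56 and Trim26 had changes of -0.52, -0.51, -0.40 and -0.40 (largest adjusted p 0.0152, for Trim56). After quantile normalization Trim34a was at -0.19 (adjusted p = 0.0208), Trim56 at -0.17 (adjusted p = 0.261) and Trim14 and Trim26 at -0.40 each. Trim25 read 1.08, 1.002 and 1.11 in Mta1-KO/Mta1, against 1.16, 1.33 and 1.24 in Mta1-KO. Its difference of -0.18 did not pass (95% confidence interval -0.43 to 0.06, adjusted p = 0.303), although the arrays did not overlap.

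Compared with WT, arrays labelled Mta1-KO/Mta1 still had 4 called members, beside 5.74% of all rows (3.37% higher and 2.37% lower), all higher and all interferon-induced. They were Trim30a (5.51), Trim25 (2.85), Trim21 (1.88) and Trim34a (1.37), with adjusted p from 7.67e-15 to 1.03e-08. Without the minimum fold 22 members passed, beside 38.5% of all rows. Trim56 and Trim14 passed the test at 0.89 and 0.56 but not the minimum fold. Trim26 was at -0.02 (95% confidence interval -0.15 to 0.10), and its Mta1-KO/Mta1 and WT arrays overlapped.

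Among the other members, Mta1-KO/Mta1 was above Mta1-KO by the largest log2 changes in Trim59 (0.64, adjusted p = 5.26e-03), Trim37 (0.52, adjusted p = 1.16e-03) and Trim33 (0.46, adjusted p = 2.50e-04). Trim24 was higher by 0.39. Trim59 read 0.29, 0.06 and 0.27 in Mta1-KO/Mta1, against -0.72, -0.08 and -0.51 in Mta1-KO. Its Mta1-KO arrays spread widely but lay below all 3 Mta1-KO/Mta1 arrays. Trim33 read 0.27, 0.09 and 0.19 in Mta1-KO/Mta1, against -0.36, -0.14 and -0.33 in Mta1-KO, and its mean in Mta1-KO/Mta1 differed from WT by 0.0033 (95% confidence interval -0.15 to 0.16). The falls were led by Trim41, a ligase for protein kinase C (-0.70, adjusted p = 2.26e-04), Trim32 (-0.40, adjusted p = 0.004625) and Trim47 (-0.39, adjusted p = 2.02e-03). Trim41 read -0.61, -0.54 and -0.62 in Mta1-KO/Mta1, against 0.16, 0.06 and 0.12 in Mta1-KO. Its Mta1-KO/Mta1 arrays also lay below its WT arrays.

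In P53-KO/Mta1 MEFs compared with P53-KO, Trim30a was the only member called, at 2.84-fold lower. The called share was 1 of 44, beside 1.62% of all rows (0.394% higher and 1.22% lower). Trim30a read -1.76, -1.45 and -1.43 in P53-KO/Mta1, against 0.02, 0 and -0.15 in P53-KO. All 3 P53-KO/Mta1 arrays lay below the P53-KO arrays, with a change of -1.51 (standard error 0.0875, adjusted p = 2.46e-08). At an adjusted p under 0.05 alone, 15 members passed, beside 29.9% of all rows. Of the 8 interferon-induced members 4 were lower and none higher, beside 14.2% and 15.7% of all rows. Besides Trim30a these were Trim34a (-0.42, adjusted p = 1.715e-03), Trim21 (-0.37, adjusted p = 5.80e-04) and Trim26 (-0.18, adjusted p = 0.0266, which did not pass after quantile normalization). Trim25 and Trim14 differed by 0.02 and 0.01, with 95% confidence intervals of -0.22 to 0.27 and -0.20 to 0.22. The median of the 8 was -0.13, against -0.03 over the other members and -0.02 over all rows; for the other members it was 0.0086 after quantile normalization, which also put the share of higher rows among all called rows at 35.1% where it had been 24.4%.

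Of the 36 other members, 0 were called by limma or the methods' t-test, and 11 had an unadjusted p under 0.05. At an adjusted p under 0.05 alone 7 were higher (19.4%) and 4 lower (11.1%), beside 15.7% and 14.2% of all rows. By the methods' t-test 3 were higher and 1 lower, and quantile normalization also left 1 lower. The rises were led by Trim37 (0.83, adjusted p = 2.23e-05), Trim59 (0.65, adjusted p = 4.33e-03) and Trim27 (0.38, adjusted p = 6.44e-04). Trim37 read 0, 0.28 and -0.03 in P53-KO/Mta1, against -0.57, -0.88 and -0.78 in P53-KO. Trim59 read 0.63, 0.41 and 0.33 in P53-KO/Mta1, against -0.35, 0 and -0.23 in P53-KO. Both were separated. The falls were led by Trim32 (-0.45, adjusted p = 1.89e-03), Trim68, a coregulator of the androgen receptor in human cells (-0.38, adjusted p = 1.47e-03), and Trim45 (-0.28, adjusted p = 9.85e-03). After quantile normalization Trim68 and Trim45 no longer passed.

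The Mta1 responses of the 2 knockouts were compared directly, as the change in Mta1-KO/Mta1 against Mta1-KO minus the change in P53-KO/Mta1 against P53-KO. Mta1 was put back into Mta1-/- MEFs in the first and over-expressed in P53-/- MEFs in the second. P53 genotype, embryo age and the kind of Mta1 change cannot be told apart in this difference. No member was called by limma, beside 1.63% of all rows (0.979% positive and 0.651% negative), and 14 of 44 had an unadjusted p under 0.05; the methods' t-test does not cover this contrast. At an adjusted p under 0.05 alone 8 members passed (18.2%), beside 17.4% of all rows. Trim30a had the largest difference of the 44 members, 0.75 (adjusted p = 7.52e-04), where the changes themselves were -0.75 for Mta1-KO/Mta1 and -1.51 for P53-KO/Mta1. After quantile normalization it was 1.61 and called. Trim14 (-0.52, adjusted p = 0.0190) and Trim21 (-0.37, adjusted p = 0.0124) differed the other way, but the difference of Trim21 was 0.12 (adjusted p = 0.504) after quantile normalization. Trim37 and Trim59, higher in both Mta1 groups, did not pass in this contrast (-0.31, 95% confidence interval -0.61 to -0.006, adjusted p = 0.170, and -0.01, interval -0.47 to 0.45).

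In P53-KO MEFs, Trim30a and Trim25 were also higher than in WT. All comparisons with WT share the same 3 WT arrays, so they are not independent of each other. In P53-KO against WT, 6 of 44 members were called, beside 12.1% of all rows (4.87% higher and 7.26% lower), and 2 were interferon-induced. Without the minimum fold 22 members passed, beside 53.5% of all rows. Trim30a was higher by 2.10 (4.29-fold, adjusted p = 1.06e-10) and Trim25 by 1.67 (3.18-fold, adjusted p = 1.60e-08). Trim25 read -0.11, 0.09 and -0.34 in P53-KO, against -1.93, -1.91 and -1.51 in WT, and every P53-KO array lay above every WT array. Trim34a, Trim21 and Trim14 passed the test at 0.54, 0.30 and 0.28. Trim56 was at 0.0016 (95% confidence interval -0.24 to 0.24), and its arrays overlapped. In P53-KO/Mta1 against WT, 3 of 44 were called, beside 7.67% of all rows (3.14% higher and 4.53% lower), and 21 passed without the minimum fold, beside 46.2%. Trim25 was still higher by 1.69 (adjusted p = 2.35e-08), while Trim30a was higher by 0.59 (adjusted p = 5.03e-05), below the minimum fold, and at -0.225 after quantile normalization (adjusted p = 0.0559).

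By group means, Trim30a ran in the order Mta1-KO (4.12), Mta1-KO/Mta1 (3.36), P53-KO (-0.04), P53-KO/Mta1 (-1.55) and WT (-2.14), and no neighbours in this order had overlapping arrays in the deposited values. Trim25 averaged 1.24 in Mta1-KO, 1.06 in Mta1-KO/Mta1, -0.09 in P53-KO/Mta1, -0.12 in P53-KO and -1.79 in WT, and only its P53-KO/Mta1 and P53-KO arrays overlapped. Trim21 averaged -0.37 ± 0.02 in P53-KO/Mta1, against -0.30 ± 0.09 in WT (SD, n = 3 each), and these overlapped too.

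Outside the interferon list, Trim8 and Trim13 were the members called against WT in both P53 groups. Their P53 arrays lay apart from all other arrays, as did those of Trim2, Trim3, Trim28 and Trim68 with smaller changes. The share of all rows that separate in this way was not counted. Trim8 read 0.69, 0.73 and 0.72 in P53-KO, against -0.72, -0.69 and -0.55 in WT, a change of 1.37 (2.58-fold, adjusted p = 2.45e-09). In P53-KO/Mta1 it was higher than in WT by 1.35. Trim13, an endoplasmic reticulum ligase, read -1.44, -1.56 and -1.51 in P53-KO, against 0.11, -0.05 and 0 in WT, a change of -1.52 (2.87-fold lower, adjusted p = 2.92e-08). It was lower in P53-KO/Mta1 by -1.33. Neither gene overlapped between the P53 groups and WT, and with P53-KO/Mta1 set against P53-KO their changes were -0.01 and 0.19 (adjusted p = 0.924 and 0.245), which did not pass.

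Trim37 (-1.09, adjusted p = 3.115e-07) and Trim2 (-1.065, adjusted p = 2.01e-08) were also called lower in P53-KO than in WT, just past a factor of 2. After quantile normalization they stood at -0.84 and -0.91 and were no longer called. Trim2 read -0.45, -0.32 and -0.36 in P53-KO, against 0.76, 0.80 and 0.49 in WT. Its Mta1-KO arrays, 0.02, 0.15 and 0, lay between these groups.

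**Figure D3:**
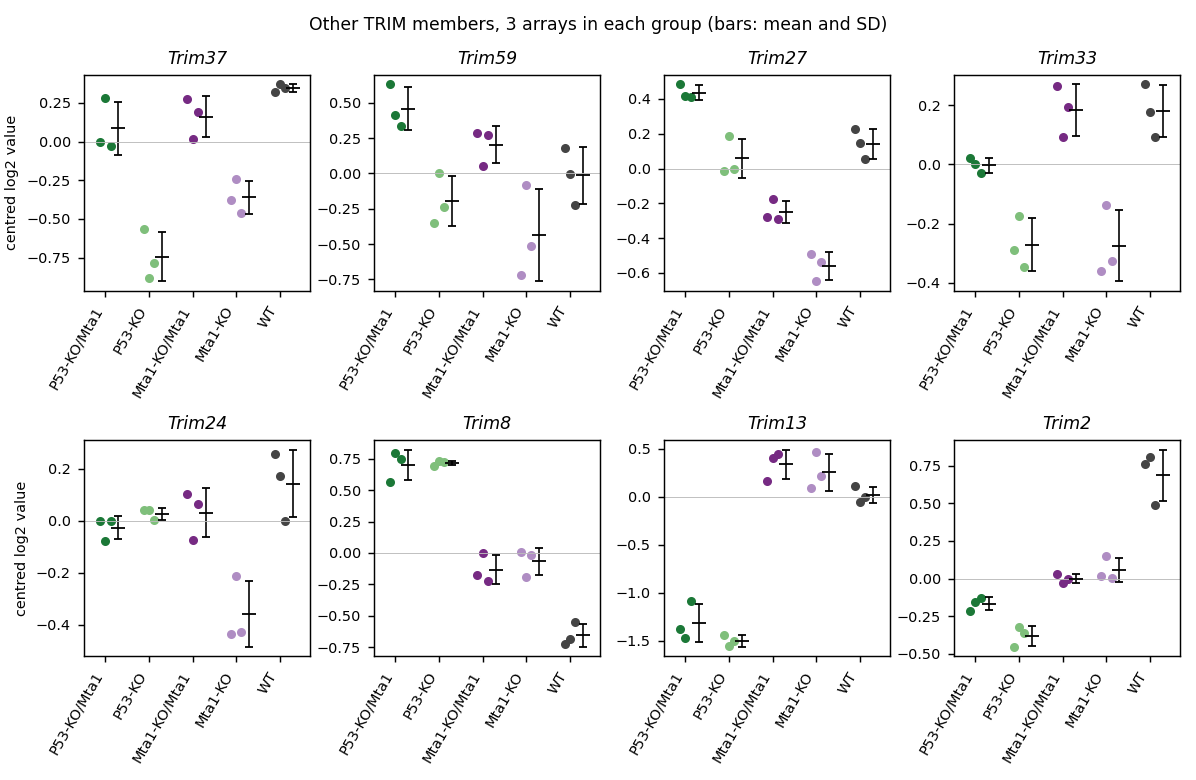
Centred log2 values (y axis) of 8 members outside the interferon list in the 5 groups (x axis), 1 point for each array, with the mean and SD of the 3 arrays. Trim37, Trim59 and Trim33 are lower in the knockout groups than in the matching Mta1 groups, while Trim8 and Trim13 set the P53 groups apart from WT.

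The remaining members varied within narrower limits. Of the 36 other members, 23 were neither among the leading rises and falls nor called, and their changes lay between -0.50 and 0.30 in Mta1-KO against WT, between -0.28 and 0.39 with Mta1-KO/Mta1 set against Mta1-KO, and between -0.20 and 0.28 in P53-KO/Mta1 against P53-KO. Among them Trim23, a member that carries an ARF GTPase domain, was lower than in WT by -0.705 in Mta1-KO/Mta1, -0.90 in P53-KO and -0.93 in P53-KO/Mta1. Trim3, an NHL member of neurons, was higher than in WT by 0.71 in P53-KO. There were 10 members that passed in no comparison (Trim7, Trim10, Trim15, Trim29, Trim30b, Trim42, Trim50, Trim52, Trim54 and Trim66), with no change beyond 0.153. By range over the 15 arrays, 6 of the 9 widest members were interferon-induced, and Trim30b was the narrowest of all.

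The rest of the interferon pathway gives the setting of these members. Of 20 measured interferon-stimulated genes outside the TRIM family, 18 were called in Mta1-KO against WT, all of them higher, beside 6.64% of all rows, with a median of 2.92; examples are Ifit1 (6.19), which binds foreign RNA, and Rtp4 (4.84). Of 11 sensors and adaptors, 6 were called higher, among them Ddx58, the gene of RIG-I (2.87), and Ifih1, that of MDA5 (2.52), the RNA sensors that Trim25 and Trim65 ubiquitinate. Of 14 receptor and signalling genes, 3 were called higher: Irf7 (3.41), Irf9 (2.81) and Stat2 (2.39). The receptor genes Ifnar1 and Ifnar2 were at 0.34 and 0.36 and did not reach the minimum fold. Against Mta1-KO, the arrays labelled Mta1-KO/Mta1 had 4, 1 and 1 genes of these lists called lower and none higher, beside 1.11% of all rows. Against P53-KO, P53-KO/Mta1 had none called by limma or the methods' t-test, beside 1.62% of all rows, though 13, 9 and 9 genes had an unadjusted p under 0.05. At an adjusted p under 0.05 alone (limma), 13, 6 and 8 were lower, beside 14.2% of all rows. By that rule 0, 3 and 1 were higher, beside 15.7%. The medians were -0.28, -0.25 and -0.21.

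**Figure D4:**
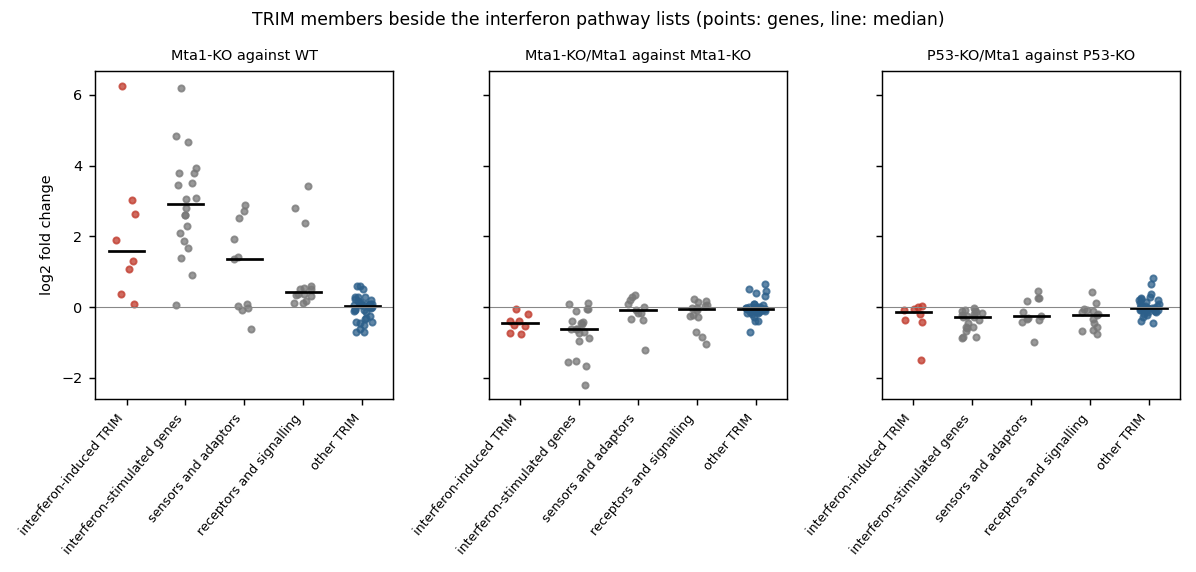
Log2 fold change (y axis) of each measured gene in the interferon-induced TRIM members, 3 lists of interferon pathway genes and the other TRIM members (x axis) in 3 comparisons; lines are medians. In Mta1-KO against WT the medians are 1.59 for the interferon-induced TRIM members, 2.92 for the interferon-stimulated genes and 0.02 for the other TRIM members.

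Markers of cell types moved between the same groups. Of all rows, 4.23% were called higher and 2.41% lower in Mta1-KO against WT, and 4.87% and 7.26% in P53-KO against WT. Of 10 fibroblast markers, 5 were called for Mta1-KO against WT, all higher (median 0.98, array medians 0.17 to 0.25 in Mta1-KO and -0.74 to -0.68 in WT). In P53-KO compared with WT 7 were called higher and S100a4 was called lower (-1.22). In that comparison the neural marker Stmn2 (2.98) was called higher and Csf1r (-1.47) lower, and no other marker outside the fibroblast list was called. Of 9 leukocyte and macrophage markers, Cd14 (-1.36) and Csf1r (-1.70) were called lower in Mta1-KO and none higher, with Ptprc, the pan-leukocyte marker, at 0.02 and array medians of the list at -0.04 to 0.03 in Mta1-KO and -0.05 to 0.0029 in WT. Of 6 skeletal muscle markers, Des was called higher in Mta1-KO (1.29), and none of the 7 neural, 7 epithelial and 8 endothelial markers was called there. Between Mta1-KO/Mta1 and Mta1-KO, Col3a1 among the fibroblast markers (-1.47) and Des (-1.03) were called lower, beside 0.788% of all rows, and no leukocyte marker was called. In P53-KO/Mta1 against P53-KO, 2 fibroblast markers were called lower, as was Map2 among the neural markers, and Stmn2 was called higher. Of all rows, 1.22% were called lower and 0.394% higher there. At an adjusted p under 0.05 alone (limma), more fibroblast markers moved. In Mta1-KO/Mta1 against Mta1-KO, 8 of the 10 were lower and 0 higher (median -0.51), beside 15.7% of all rows lower. In P53-KO/Mta1 against P53-KO, 8 were lower and 0 higher (median -0.68), beside 14.2%. The part of the markers in the TRIM results was not tested, and in such bulk RNA fewer cells of a type and less RNA per cell cannot be told apart.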

How the data were processed

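Total RNA of mouse embryonic fibroblasts was hybridised to Affymetrix Mouse Exon 1.0 ST arrays, 15 in all. The deposited log2 values were normalized by the authors in GeneSpring GX 10.0.2 and hold each of 16755 rows centred on its median over the 15 arrays. How probes were summarised, and on which genome build, is not stated in the labels or methods. Genes were named from GEO's platform annotation, which gives 1 gene for 14996 rows, several for 1019 and none for 740.

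All rows were fitted in limma 3.58.1 (R 4.3.3) with the 5 group means as coefficients (10 residual degrees of freedom), in place of the study's t-test, which was run as an alternative. Benjamini-Hochberg adjustment ran over all rows. Calls used the study's thresholds of 0.05 for the adjusted p and 2 for the fold. Between the Mta1 responses, the difference of the differences was tested. The fit was tested on simulated data. Alternatives were quantile normalization (run on the row-centred values), centring of arrays, the compared groups alone and a moderated variance with trend. A replicate block, no minimum fold and leaving out each array were further alternatives.

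Array values were given for called and interferon-induced members, and for others the 3 largest rises and 3 largest falls in each main comparison. Trim3, Trim23, Trim24, Trim28 and Trim36 were added after their values were seen. The members and the lists (interferon-induced members, classes of TRIM proteins, TRIM genes under other symbols, interferon pathway genes and cell type markers) were chosen with earlier results of these data known. The small number of arrays limits the precision. Promoters came from RefSeq (GRCm38.p6).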

Additional observations from a re-analysis of the deposited data

Results flagged for a closer look

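For 8 members the change in Mta1-KO/Mta1 against Mta1-KO differed from the change in P53-KO/Mta1 against P53-KO at an adjusted p under 0.05 (limma), beside 17.4% of all rows, and none reached a fold of 2. Trim30a had a positive difference of 0.75, the only interferon-induced member to do so. Trim14 (-0.52) and Trim21 (-0.37) had negative ones. Among the other members the difference was -0.53 for Trim47, -0.49 for Trim41 and -0.24 for Trim36, against 0.44 for Trim24 and 0.40 for Trim68. After quantile normalization 6 of the 8 still passed, Trim68 did not (0.32, adjusted p = 0.170), and the difference of Trim21 turned to 0.12 (adjusted p = 0.504).

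Trim47 read -0.46, -0.22 and -0.32 in Mta1-KO/Mta1, all below the Mta1-KO arrays, while its P53-KO/Mta1 arrays (0, 0.22 and 0.33) overlapped with P53-KO. Trim36, a microtubule-binding member, read 0.24, 0.24 and 0.17 in P53-KO/Mta1 and lay between -0.06 and 0.05 in every array of the other groups. Trim68 was high in P53-KO (0.53, 0.59 and 0.61) and at or below 0.26 in the arrays of the other groups. The P53 groups also differ from the Mta1 groups in embryo age and in the kind of Mta1 change. Genotype, age and kind of Mta1 change cannot be told apart in these differences.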

How the results depend on the processing

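Of 20 calls of members, all 20 held under the methods' t-test, with the compared groups alone, with each array centred and with a trended variance. Quantile normalization lost Trim37 and Trim2 in P53-KO against WT and left the count of calls at 6 in Mta1-KO against WT, but it made Trim30a a call in the difference of the Mta1 responses (1 member, an interferon-induced one). It gave interferon-induced medians of 1.41 in Mta1-KO against WT, -0.18 in Mta1-KO/Mta1 against Mta1-KO, 0.0523 in the difference and 1.23 in Mta1-KO/Mta1 against WT, and an other-member median of 0.0086 in P53-KO/Mta1 against P53-KO. The cause was not tested.

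Without a minimum fold, members passing numbered 24 in Mta1-KO against WT, 16 in Mta1-KO/Mta1 against Mta1-KO (6 interferon-induced), 15 in P53-KO/Mta1 against P53-KO (4), 8 in the difference (3), 22 in Mta1-KO/Mta1 against WT, 22 in P53-KO against WT (5) and 21 in P53-KO/Mta1 against WT (3). Counts at the adjusted p alone were an alternative chosen after seeing the data. By the t-test they gave 3 other members higher for Mta1-KO/Mta1 against Mta1-KO. For P53-KO/Mta1 against P53-KO they gave 3 higher and 1 lower, where quantile normalization also gave 1 lower.

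Leaving out each array gave 5 to 6 calls in Mta1-KO against WT (Trim14 was lost without Mta1-KO replicate 1), and 3 to 4 in P53-KO/Mta1 against WT (Trim23 was added without WT replicate 3, at -1.01). It gave 3 to 5 other members lower in Mta1-KO/Mta1 against Mta1-KO. Medians of the interferon-induced members ranged from -0.22 to -0.11 in P53-KO/Mta1 against P53-KO and from -0.28 to -0.16 in the difference. Medians of the other members ranged from -0.0055 to 0.0643 in Mta1-KO against WT, from -0.0785 to -0.0072 in the difference, from 0.0275 to 0.085 in P53-KO against WT and from -0.0196 to 0.0632 in P53-KO/Mta1 against WT.

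Replicate numbers did not pair the arrays throughout, since 10 of 30 correlations between deviations of same-numbered arrays were over 0.1 (range -0.38 to 0.42). Among WT, Mta1-KO and P53-KO, those of replicates 2 and 3 were all positive (0.20 to 0.42), and those of replicate 1 were -0.26 to 0.085. Differently numbered arrays could correlate as well, as WT replicate 1 did with Mta1-KO replicate 2 (0.46). Whether such arrays shared a batch was not tested. With the replicate block all 20 calls of members held, and 6 members were called in Mta1-KO against WT. Dim probes could not be filtered, because centred values hold no level.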

Other observations

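TRIM genes that go by other symbols gave 6 single-gene rows (Bspry, Cmya5, Mefv, Mid1, Pml and Triml1). None was called in Mta1-KO against WT, beside 6.64% of all rows, and 2 of the 6 (33.3%) passed without a minimum fold, beside 40.2%. Mid1, a microtubule-associated ligase whose human gene is mutated in Opitz syndrome, changed by 0.98 in Mta1-KO against WT, by -0.62 between Mta1-KO/Mta1 and Mta1-KO, and by -0.87 between P53-KO/Mta1 and P53-KO. It was called in P53-KO against WT (1.06). Pml, which organises nuclear bodies and is itself induced by interferon, changed by 0.85 in Mta1-KO against WT. In Mta1-KO/Mta1 it stood 0.95 above WT.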
